A study of Mus musculus with 2 samples.

Results

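Natural killer (NK) cells of the mouse aorta were taken from 2 single-cell RNA libraries by their transcripts, and 52 of 2957 cells met the rule. A cell was gated as NK when it held at least 1 unique molecular identifier (UMI, 1 counted RNA molecule) of Ncr1 or Klrb1c, no UMI of the T cell genes Cd3d, Cd3e and Cd3g, and at most 2 UMIs each of the B cell genes (Cd79a, Cd79b, Ms4a1 summed), the C1q genes (C1qa, C1qb, C1qc summed) and Lyz2. Cells with under 200 genes or over 10% mitochondrial UMIs had been left out. The gate held 19 of 896 cells of the chow library, 2.12% (exact 95% interval 1.28 to 3.29), and 33 of 2061 cells of the WD library, 1.60% (1.10 to 2.24), so the intervals of the 2 shares overlapped.

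All mice were ApoE-/- on the C57BL6/J strain, which lack apolipoprotein E and carry high blood cholesterol, and the compared groups were fed chow or a diet labelled WD, which the labels do not spell out. Aortas were digested with enzymes, viable CD45+ leukocytes were sorted, and the cells of 10 aortas per diet were pooled into 1 library made with the 10x Genomics 3' v2 kit. The labels give no age, sex or time on the diet. With 1 library per diet there is no replicate of a diet, so no test between diets was possible, diet and library cannot be told apart, and every interval covers counting error only.

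NK cells are innate lymphocytes that kill virus-infected, transformed or stressed cells without a rearranged antigen receptor. Activating receptors such as NKp46 (Ncr1), NK1.1 (Klrb1c), NKG2D (Klrk1) and some Ly49 proteins (Klra genes) signal through the adaptors DAP12 (Tyrobp), DAP10 (Hcst) and the Fc receptor gamma chain (Fcer1g), while inhibitory Ly49 proteins and the CD94-NKG2A pair (Klrd1, Klrc1) recognise MHC class I and restrain the cell. A triggered NK cell releases perforin and granzymes from its granules and secretes interferon gamma and chemokines. In the artery wall of atherosclerotic mice NK cells form a small share of the leukocytes.

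Most Klr genes lie together in the NK gene complex. The 23 Klr genes looked up here, from Klrb1a to Klra1, span 1.78 Mb of mouse chromosome 6, from 128609227 to 130386874 (GRCm38, the build also called mm10), and the Klra genes from Klra17 to Klra1 take up 0.556 Mb of it. Other Klr genes or pseudogenes of the span were not counted. Ncr1 is on chromosome 7 (4337724 to 4345164), outside the complex, and Gzma is on chromosome 13 (113093825 to 113100981). The upstream sequences of the gate gene Ncr1 and of Gzma and Gzmb, the granzyme genes with the most UMIs in the gated cells, are shown because these genes define the cells and their killing and because RUNX and T-box factors are known regulators of NK cells. Each is the 250 bases before the RefSeq gene start in GRCm38.p6, 5' to 3' on the strand of the gene, with the letters TGTGGT or their reverse complement ACCACA, a form of the RUNX motif, in capitals.
Ncr1, chr7:4337465-4337714, plus strand: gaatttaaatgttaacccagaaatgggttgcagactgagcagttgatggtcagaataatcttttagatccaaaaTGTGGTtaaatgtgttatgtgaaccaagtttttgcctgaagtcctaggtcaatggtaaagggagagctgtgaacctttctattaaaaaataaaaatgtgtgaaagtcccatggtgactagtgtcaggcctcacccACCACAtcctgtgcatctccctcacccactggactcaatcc
Gzma, chr13:113100982-113101231, minus strand: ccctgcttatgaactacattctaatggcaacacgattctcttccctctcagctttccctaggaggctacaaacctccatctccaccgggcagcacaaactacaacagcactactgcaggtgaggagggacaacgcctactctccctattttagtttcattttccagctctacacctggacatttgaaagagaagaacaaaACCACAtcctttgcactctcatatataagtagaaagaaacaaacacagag
Gzmb, chr14:56262335-56262584, minus strand: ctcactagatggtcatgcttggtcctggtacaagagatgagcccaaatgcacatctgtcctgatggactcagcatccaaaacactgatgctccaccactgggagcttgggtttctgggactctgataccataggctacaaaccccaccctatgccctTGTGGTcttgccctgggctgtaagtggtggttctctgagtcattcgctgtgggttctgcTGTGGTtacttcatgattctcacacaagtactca
Searched on both strands, TGTGGT was present in 3832 of 27025 RefSeq windows of this length (14.2%), and GGTGTGA, a form of the T-box motif whose letters can overlap with it, in 894 (3.31%). Among the 19 of 21 cytotoxic granule genes with a window, 9 held TGTGGT (47.4%), namely Cst7, Gzma, Gzmb, Gzmc, Gzmm, Lamp1, Nkg7, Prf1 and Rab27a, and 4 held GGTGTGA (21.1%). With a window, 6 of 17 inhibitory receptor genes, 4 of 10 activating receptor genes and 1 of 16 transcription factor genes (6.25%) held TGTGGT. A match of letters is a description of the sequence and no evidence that a factor binds there.

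The rule used Ncr1 and Klrb1c, so their levels describe the choice of cells. Ncr1 had 69 UMIs in the chow NK cells and 109 in the WD NK cells, and Klrb1c had 53 and 85. Both genes were seen in 14 of 19 chow and 25 of 33 WD cells, Ncr1 alone in 2 and 4, and Klrb1c alone in 3 and 4. Their sum per cell ran from 1 to 18 UMIs in chow (median 5) and from 1 to 16 in WD (median 5).

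Most of the cells carried NK markers that the rule did not use. These markers were chosen with earlier results of these data known, so their presence is a description and no independent support. Gzma, the most abundant granzyme of NK cells, had a UMI in 17 of 19 chow and 29 of 33 WD cells, against 1.27% of the cells of a B cell gate that should lack it. Klra4, the activating receptor Ly49D, had one in 8 of 19 and 8 of 33 cells, against 0.318% of B cells. Of 12 NK genes outside the rule (Klra4, Gzma, Klra7, Klra8, Klre1, Klri2, Klrd1, Nkg7, Prf1, Gzmb, Eomes and Serpinb9b), at least 3 were present in 18 of 19 chow and 31 of 33 WD cells, with a median of 7 in both libraries. None of the 79 gated ILC2 cells (type 2 innate lymphoid cells) and none of the 628 gated B cells reached 3 of them. In the CD8 T gate defined below, 50 of 325 chow and 128 of 523 WD cells did, so the set is not particular to NK cells. The median cell held 3642 UMIs in the chow NK gate and 3346 in the WD NK gate, and 2823.5 and 2459.5 in the B cell gate.

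**Figure D1:**
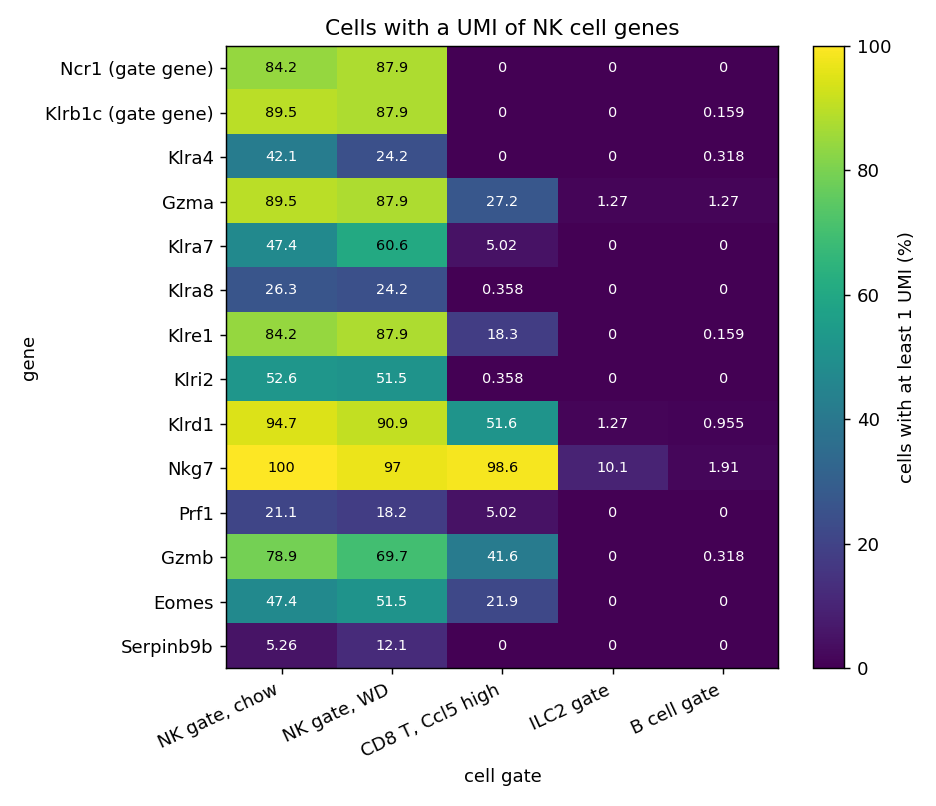
Share of cells (%) with at least 1 UMI of the 2 gate genes and of 12 NK genes outside the rule (rows), in the NK gate of each library and in the Ccl5-high CD8 T cell, ILC2 and B cell gates over both libraries (columns), with the share printed in each field. Klre1 was present in 84.2% and 87.9% of NK cells and in 18.3% of Ccl5-high CD8 T cells, and Nkg7 in 100% and 97.0% of NK cells and in 98.6% of those T cells.

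The 3 gated cells with fewer than 3 of the 12 markers were looked at singly after their values had been seen. The chow cell of these, with 4279 UMIs, held 3 Ncr1 UMIs and no Ccl5, Gzma or Tyrobp. It held 10 UMIs of Areg (amphiregulin, an epidermal growth factor receptor ligand), 9 of Il7r (the interleukin 7 receptor of innate lymphoid and T cells), 9 of Gpr183 (an oxysterol receptor that guides migration), 5 of Cxcr6 (a chemokine receptor of tissue lymphocytes) and 3 of Gata3. This cell accounted for all 10 Areg UMIs of the chow NK gate, 9 of its 10 Il7r UMIs, 9 of its 13 Gpr183 UMIs and 5 of its 6 Cxcr6 UMIs. The other 2, both from WD, held 34 and 23 Ccl5 UMIs, 2 and 4 Il7r UMIs and no Gzma.

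Cells near the limits of the rule were few. Gated cells with a sum of 1 numbered 1 in chow and 3 in WD, and each of them held at least 3 of the 12 markers; those with a sum of 2 numbered 2 and 3. Just outside, no chow cell and 2 WD cells missed the gate by 1 Cd3 UMI, and both held at least 3 markers. Cells with 2 or more Cd3 UMIs that met the other limits numbered 9 and 11, of which 7 and 8 held at least 3 markers. Of the cells that met the other limits without a UMI of Ncr1 or Klrb1c, 53 in chow and 209 in WD, only 1 and 5 held at least 3 markers, and 1 chow cell failed the B cell, C1q or Lyz2 limits.

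The effector genes Ccl5, Gzma and Nkg7 were among the 10 most abundant transcripts of the NK cells, beside AW112010 and cytoskeletal and housekeeping genes. Leaving out mitochondrial and ribosomal protein genes and Malat1, the 10 genes with the most UMIs were Ccl5, Tmsb4x, Gzma, Tmsb10, Actb, AW112010, B2m, Eef1a1, Nkg7 and Actg1. Levels are given as UMIs scaled to 1000000 UMIs of the gated cells of a library (CPM); the assay counts 3' ends, so values are not scaled to gene length. Ccl5, a chemokine for T cells and monocytes, ran from 0 to 237 UMIs per chow cell (median 108) and from 5 to 243 per WD cell (median 65), and its level was 25162 CPM (exact Poisson 95% interval 24052 to 26309) in chow and 20787 CPM (19998 to 21599) in WD. Gzma, which encodes granzyme A, ran from 0 to 79 UMIs per chow cell (median 27) and from 0 to 150 per WD cell (median 24), at 7957 CPM (7339 to 8614) and 9067 CPM (8549 to 9609). The cells of both libraries overlapped over most of their range for both genes.

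Granule genes were uneven in depth. Nkg7, a granule membrane protein needed for degranulation, ran from 1 to 30 UMIs per chow cell (median 14) and from 0 to 35 per WD cell (median 20). Gzmb, granzyme B, ran from 0 to 25 (median 3) and from 0 to 29 (median 1), and it was detected in 15 and 23 cells. Gzma and Gzmb were seen together in 37 of the 52 cells. Perforin (Prf1), the pore former of the granule, reached only 6 and 9 UMIs in 4 and 6 cells. Granzymes K, M and C (Gzmk, Gzmm and Gzmc) had 0 UMIs in chow, where a count of 0 is read as up to 39.1 CPM (3 UMIs), and 5, 1 and 2 UMIs in WD. The death ligand Fasl had 13 and 25 UMIs in 7 and 16 cells, and Tnfsf10 (TRAIL) had 1 and 4.

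While Ccl5 had a UMI in 18 of 19 chow and 33 of 33 WD cells, transcripts of Xcl1, Ccl4 and Ccl3 were each detected in part of the cells. Xcl1, which attracts cross-presenting dendritic cells, had 152 UMIs in 12 of 19 chow cells and 155 in 19 of 33 WD cells, with at most 42 and 33 in a cell. Ccl4, an inflammatory chemokine, had 352 UMIs in 11 chow cells, 131 of them in a single cell, and 318 in 22 WD cells, with at most 62 in a cell. Ccl3, its close relative, had 91 UMIs in 10 cells and 82 in 16. At least 1 of these 3 genes was seen in 46 of the 52 cells. Ifng, the gene of interferon gamma, had 12 UMIs in 5 chow cells and 20 in 10 WD cells, while Tnf and Il10 had none in either library.

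**Figure D2:**
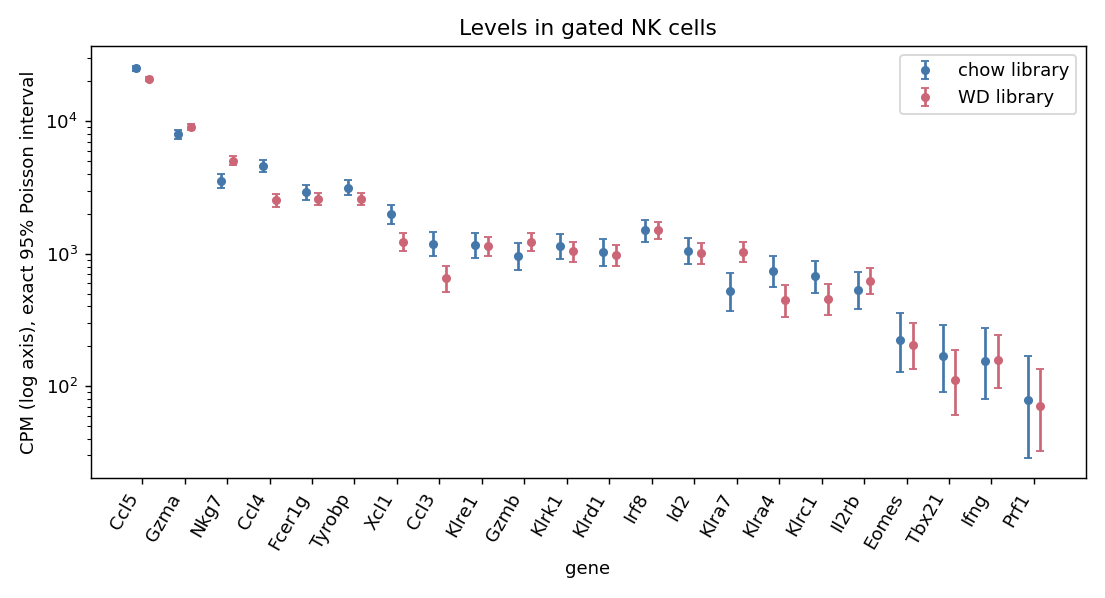
Level (CPM, log axis) of 22 genes in the gated NK cells of the chow (blue) and WD (red) libraries; points are UMIs summed over cells and bars are exact 95% Poisson intervals. Ccl5 stood highest and Prf1 lowest among the genes drawn, and the intervals of the libraries overlapped for Prf1, Ifng, Tbx21 and Eomes.

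Among activating receptors and adaptors, Tyrobp, Fcer1g and Klrk1 were detected in nearly all cells and the activating Ly49 genes in fewer. Tyrobp (DAP12) ran from 0 to 31 UMIs per chow cell (median 11) and from 2 to 24 per WD cell (median 10). Fcer1g ran from 5 to 32 (median 11) and from 2 to 18 (median 9) and was present in all 52 cells. Klrk1 (NKG2D) was present in 18 of 19 and 32 of 33 cells with at most 9 UMIs in a cell. Other signalling parts were detected less often, Hcst in 16 and 27 cells and Cd247, the CD3 zeta chain, in 9 and 13. The activating Ly49 genes Klra4 (Ly49D) and Klra8 (Ly49H, a receptor for a cytomegalovirus protein) were present in 22 of the 52 cells, and together in 7 of these. Fcgr3, the Fc receptor of antibody-dependent killing, had 6 UMIs in each library, in 5 cells each.

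Inhibitory receptors differed from cell to cell. Klrd1 (CD94) was present in 18 of 19 and 30 of 33 cells, and Klre1, an inhibitory or activating partner of other Klr proteins, in 16 and 29. Klrc1 (NKG2A) was present in 10 and 17 cells, with a median of 1 UMI and at most 9 and 11. Among the Ly49 genes, Klra7 (Ly49G) was found in 9 and 20 cells, Klra9 (Ly49I) in 8 and 10, Klra3 (Ly49C) in 9 and 9, and Klra1 (Ly49A) in 1 and 4, whereas Klra5 and Klra6 were seen only in WD (5 and 2 UMIs) and Klra10 in neither library. Counting the Ly49 genes with a UMI, 10 of the 52 cells had 0, 11 had 1, 13 had 2, 8 had 3, 9 had 4 and 1 had 5, and the median was 2 in both libraries. Transcripts of low genes are missed at this depth, so these numbers are lower limits of each cell's repertoire.

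An inhibitory receptor for MHC class I was seen in nearly every cell. Inhibitory Ly49 genes (Klra1, Klra3, Klra5, Klra6, Klra7 or Klra9) were detected in 40 of the 52 cells, 20 of them with Klrc1 and 20 without. Klrc1 without an inhibitory Ly49 gene was found in 7 cells, and 5 cells had neither. Klra4 was seen together with Klra7 in 13 of its 16 cells and with Klra8 in 7. Ly49 genes resemble each other, but of the 98-base words of the last 400 bases of their annotated transcripts, where the assay reads, Klra3 and Klra10 shared 24, and the other members shared none. Of the checkpoint receptors, Pdcd1 (PD-1) and Havcr2 (TIM-3) had 0 UMIs in both libraries, read as up to 39.1 CPM in chow and 23.8 CPM in WD, Tigit had 1 and 1, and Lag3 had 1 and 4.

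**Figure D3:**
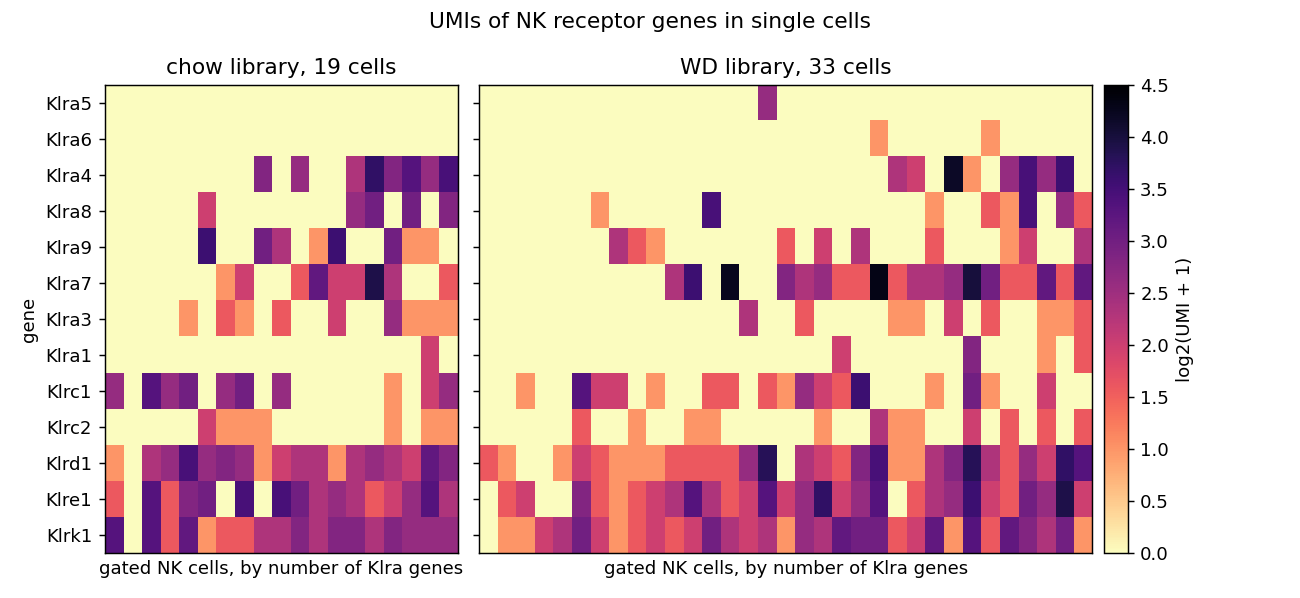
UMIs, as log2(UMI + 1), of 13 NK receptor genes (rows) in each of the 19 chow and 33 WD NK cells (columns, ordered by the number of Klra genes detected). Klrd1, Klre1 and Klrk1 fill nearly all columns, while Klra4, Klra7, Klra8, Klra9 and Klrc1 appear in changing combinations.

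Transcription factors of the NK lineage were present at low depth. Eomes, a T-box factor that separates NK cells from type 1 innate lymphoid cells (ILC1), had 17 and 26 UMIs in 9 and 17 cells, and Tbx21 (T-bet) 13 and 14 in 8 and 11 cells. Either was seen in 37 of the 52 cells, and both in 8. Irf8, a factor that supports NK cell expansion, was deeper, with 0 to 22 UMIs per chow cell (median 5) and 0 to 14 per WD cell (median 4). Id2, the inhibitor of E proteins in innate lymphocytes, had 81 and 127 UMIs in 17 and 28 cells.

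Genes of maturation stages and of tissue residence placed the cells only loosely. Cd27, kept by less mature NK cells, had a UMI in 10 and 12 cells, Itgam (CD11b), gained later, in 2 and 7, and both together in 2 of the 52. Klrg1, a receptor of terminally mature cells, had 12 and 16 UMIs. The ILC1-associated genes were scarce: Itga1 (CD49a) had 1 and 0 UMIs, Cxcr6 6 and 0, and Il7r 10 and 6, and most of the Cxcr6 and Il7r UMIs in chow were those of the low-marker cell described above. Of the trafficking genes, Ccr2, a receptor for monocyte chemoattractants, had 32 and 55 UMIs in 7 and 18 cells. Il2rb, the receptor chain shared by interleukin 2 and interleukin 15, had 41 and 79 UMIs in 17 and 27 cells.

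Defining markers of most other cells that the sort or the gate could have let in were at or near 0, and 4 lists held more. Summed over its list, the chow and WD NK cells held 1 and 0 UMIs of 8 macrophage genes, 0 and 0 of 6 basophil and mast cell genes, 1 and 2 of 6 neutrophil genes, 1 and 2 of the measured B cell genes, 0 and 1 of 5 ILC3 genes and 2 and 5 of 8 vessel wall genes, and the plasmacytoid dendritic cell list held 2 and 7. The T cell list had 31 and 28 UMIs, of which Cd28 gave 23 and 15, and Cd5 and Cd6 had none. The monocyte list had 33 and 55, nearly all of them Ccr2, and the ILC2 list had 27 and 5, with 13 of the chow UMIs in 1 cell. The conventional dendritic cell list had 38 and 31 UMIs in 14 and 14 cells, nearly all of them of Cd74 (15 and 18) and the MHC class II genes, while Cd209a, Xcr1, Clec9a and Flt3 were at 0. The part of these transcripts in the other results was not tested.

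NK cells were set beside CD8 T cells, the other cytotoxic lymphocytes of these aortas, to describe what differs when granules are shared. The gates rest on expression, so the comparison is a description without a test, and genes of either gate were left out. A gene is counted as higher or lower when its CPM differed 2-fold or more, with an exact interval of the ratio excluding 1, in both libraries. The CD8 T gate (at least 2 Cd3 UMIs, at least 1 of Cd8a or Cd8b1, none of Ncr1 or Klrb1c, and the same other limits) held 325 and 523 cells, but 55.4% of its chow and 34.8% of its WD cells had a UMI of Dntt, a gene of immature lymphocytes. Against this gate, 237 of 10008 genes were higher (2.37%) and 224 lower (2.24%) in NK cells. The lower set was led by cycling and immature T cell genes such as Nusap1, Ccna2 and Rag1, each at 0 UMIs in NK cells. After these values had been seen, the gate was narrowed. Against its 120 and 320 cells without Dntt, Rag1 or Cd4, 169 of 8040 genes were higher (2.1%) and 46 lower (0.572%), activating receptors giving 9 of 12 higher. A further limit of at least 3 Ccl5 UMIs left cells called Ccl5-high CD8 T cells from here on (67 chow and 212 WD cells). Against these, 126 of 7129 genes were higher (1.77%) and 47 lower (0.659%) in NK cells.

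Many receptor genes and some of their adaptors were higher in NK cells than in Ccl5-high CD8 T cells. The T cell gate allowed no Ncr1 or Klrb1c UMI, so T cells with these NK genes were left out of it. Cells with such a UMI and 2 or more Cd3 UMIs numbered 9 in chow and 11 in WD. Of these, 7 and 8 held at least 3 of the 12 markers. The receptor differences are thus partly set by the gate, and by how much was not tested. Higher in NK cells were 7 of 12 measured activating receptor genes, 7 of 14 inhibitory receptor genes and 4 of 14 adaptor and signalling genes, beside 1.77% of all genes. For a gate with 0 UMIs, here and below, folds read the 0 as 3 UMIs, and the exact limit of the ratio nearest 1 is given beside them. Tyrobp had 242 UMIs in chow NK cells and 0 in the T cells, 300-fold higher (lower limit 242). In WD it had 326 and 4, 465-fold higher (180 to 1716). Klra4 had 57 and 56 NK UMIs and none in the T cells, 70.6-fold and 106-fold higher (lower limits 55.6 and 83.7). Fcer1g was 92.5-fold (47.9 to 205) and 71.7-fold (48.1 to 111) higher, and Klrk1, which effector CD8 T cells share, 4.61-fold (3.33 to 6.39) and 3.19-fold (2.56 to 3.97). Lower in NK cells were Lat, the scaffold of T cell receptor signalling, at 0.104 and 0.120 of the T cell level, and Pdcd1. Pdcd1 had 0 NK UMIs against 83 and 184, 7.45-fold and 10.8-fold lower (upper limits of the ratio 0.169 and 0.115). Cd6 and Cd5, surface proteins of T cells, had 0 NK UMIs. They were 4.75-fold and 3.32-fold lower in chow (upper limits 0.268 and 0.390) and 6.78-fold and 4.15-fold lower in WD (0.184 and 0.304).

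Of 20 measured granule genes, 4 were higher and 1 lower in NK cells, beside 1.77% and 0.659% of all genes. Gzma was 6.80-fold (5.94 to 7.79) and 10.7-fold (9.73 to 11.9) higher in NK cells, Prf1 7.43-fold (1.59 to 45.9) and 4.67-fold (1.71 to 12.4), and the granzyme inhibitors Serpinb9 and Serpinb6b 2.29-fold and 2.06-fold in chow and 4.53-fold and 6.90-fold in WD. Gzmk, a granzyme of memory CD8 T cells, was lower, with 0 NK UMIs against 83 in chow and 5 against 273 in WD. Nkg7 (1.04-fold and 1.35-fold) and the cathepsin Ctsw (1.64-fold and 1.43-fold) did not reach 2-fold in either library, and Gzmb did so in WD alone (1.23-fold and 2.99-fold).

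Of 9 measured cytokine genes, 4 were higher in NK cells than in Ccl5-high CD8 T cells and none lower; Ccl5 chose the T cells and is not among the 9. Xcl1 was 8.56-fold and 5.36-fold higher, Ccl3 28.2-fold and 9.95-fold, and Ccl4 7.88-fold and 2.54-fold. Osm, which encodes oncostatin M, was 37.2-fold (5.29 to 1613) and 20.0-fold (3.80 to 197) higher, with 1 and 2 UMIs in the T cells. Ifng stood at 0.949 and 1.10 of the T cell level. Irf8 was 107-fold (40.6 to 399) and 83.3-fold (47.6 to 159) higher, the transcription factors Eomes (2.26-fold and 2.18-fold), Tbx21 (2.20-fold and 2.22-fold) and Id2 (2.25-fold and 2.50-fold) by little more than the criterion, and Tox, a factor of chronically stimulated T cells, was lower (0.310 and 0.202). Of 21 measured interferon response genes, 0 were higher and 3 lower (Isg15, Ifi27l2a and Ifit3), beside 1.77% and 0.659% of all genes.

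**Figure D4:**
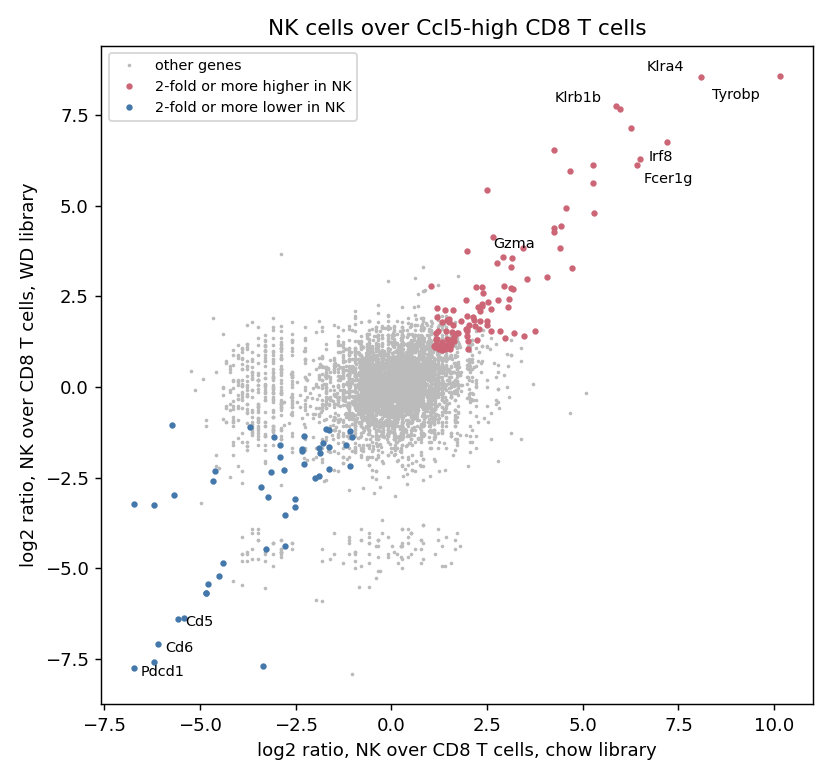
log2 ratio of CPM, NK cells over Ccl5-high CD8 T cells, in the chow library (horizontal) and the WD library (vertical) for genes with at least 20 UMIs in all; each point is a gene, coloured where it was 2-fold or more higher (red) or lower (blue) in both libraries with intervals excluding 1. Tyrobp and Klra4 lie at the upper right and Pdcd1, Cd6 and Cd5 at the lower left; points at the extremes rest on 0 UMIs in a gate.

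ILC2 cells, helper-type innate lymphocytes, were the other innate lymphocytes set beside the NK cells. Their gate (Gata3 and at least 1 UMI of Il5, Il13 or Il1rl1, with no Cd3, Ncr1 or Klrb1c UMI) held 23 and 56 cells, and 158 of 4446 genes were higher (3.55%) and 156 lower (3.51%) in NK cells. Higher were 11 of 17 granule genes, 9 of 11 activating receptor genes, 8 of 12 inhibitory receptor genes and 8 of 14 adaptor and signalling genes. Gzma had 611 and 1142 NK UMIs against 1 and 0. Klre1, at 0 in ILC2, was 29.3-fold and 64.3-fold higher (lower limits 23.3 and 51.6), and Ccl5 476-fold (186 to 1749.65) and 88.3-fold (64.6 to 124). Lower in NK cells was the chemokine gene Ccl1, with 0 NK UMIs, 39.6-fold and 22.2-fold (upper limits of the ratio 0.0316 and 0.0564). Arg1, the arginase of ILC2, also had 0 and was 17.9-fold and 23.7-fold lower (0.0711 and 0.0528). Csf2, the gene of GM-CSF, was lower too, with 1 and 0 NK UMIs against 153 and 237. The ILC1 list had 0 of 12 genes higher and 9 lower in NK cells than in ILC2, and the immediate early list 0 of 16 higher and 6 lower.

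Between the diets, few receptor and granule genes of the NK cells passed the criterion. In UMIs summed over cells, immediate early genes were mostly lower and proliferation genes higher in WD. Ratios are WD over chow, of UMIs summed over the cells of a library and scaled to their total, with an exact interval. Among 2706 genes with at least 10 UMIs, 48 were 2-fold or more higher in WD with an interval excluding 1 (1.77%) and 93 lower (3.44%), and the median log2 ratio of all was -0.0034, with quartiles of -0.46 and 0.41. Members below 10 UMIs have no ratio, so list counts cover only the measured members.

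Granule genes differed little. Of 14 measured, 8 were higher and 6 lower in WD, the median log2 ratio was 0.19, and only Serpinb6b passed the criterion, against the 1.77% of all genes. Serpinb6b, an inhibitor of serine proteases, ran from 0 to 7 UMIs per chow cell (median 1, 11 of 19 cells) and from 0 to 21 per WD cell (median 2, 27 of 33 cells), and its ratio was 2.11 (1.44 to 3.16). Gzma had a ratio of 1.14 (1.03 to 1.26), Nkg7 of 1.43 (1.24 to 1.66), Gzmb of 1.28 (0.962 to 1.71) and Prf1 of 0.914 (0.291 to 3.12). The median level per cell in chow and WD went the same way for Gzma (7476 and 8966 CPM) and Nkg7 (3122 and 5240 CPM). For Gzmb it went the other way (771 and 542 CPM). The sign of the list's median was not stable: it was -0.20 when the limits on B cell, C1q and Lyz2 UMIs were set to 0, and below 0 after thinning every cell to 1000 UMIs.

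Activating receptors had 2 of 10 measured members higher and 8 lower in WD, with a median log2 ratio of -0.24 and none past the criterion. Klrk1 stood at 0.908 (0.687 to 1.20), Klra4 at 0.599 (0.407 to 0.882) and Klra8 at 0.697 (0.406 to 1.20). Inhibitory receptors had 3 of 10 higher and 7 lower, with a median of -0.18, and 1 was lower past the criterion, beside 3.44% of all genes. That gene was Klra9, with 43 UMIs in 8 of 19 chow cells and 26 in 10 of 33 WD cells, at a ratio of 0.369 (0.217 to 0.614). Klra7 went the other way, with 40 UMIs in 9 cells and 130 in 20 cells, at 1.98 (1.38 to 2.90), just under 2-fold, and at 2.54 (1.64 to 4.06) without the cell of each library that had the most. Klrd1 (0.949) and Klre1 (0.980) lay close to 1. Adaptor and signalling genes had 7 of 14 higher and 7 lower with a median of 0.01 and none past the criterion, and that median took either sign across the settings tried.

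Cytokine and chemokine genes had 2 of 9 measured members higher and 7 lower in WD, none past the criterion, with a median of -0.68. Ccl4 was at 0.551 (0.472 to 0.643) of the chow level, and at 0.701 (0.583 to 0.843) without the top cell of each library, 1 chow cell having given 131 of 352 UMIs. Ccl3 stood at 0.549 (0.403 to 0.749), Xcl1 at 0.622 (0.494 to 0.783), Ccl5 at 0.826 (0.779 to 0.877) and Ifng at 1.02 (0.473 to 2.28). These are ratios of sums, and the median cell did not always go the same way. It held 1 Ccl4 UMI in chow and 3 in WD, 2 and 2 of Xcl1, and 1 and 0 of Ccl3. Of the summed list it held 119 UMIs in chow and 85 in WD. The direction of the list held under each setting tried, with medians from -0.76 to -0.27.

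Immediate early and dissociation-induced genes, which are switched on within minutes by stimulation or by tissue digestion, were lower in WD NK cells. Of 15 measured, 2 were higher and 13 lower, with a median log2 ratio of -0.74, and 7 were past the criterion, beside 3.44% of all genes. The summed list ran from 1 to 154 UMIs per chow cell (median 33) and from 5 to 61 per WD cell (median 18), so the cells overlapped, and its ratio over the measured members was 0.566 (0.512 to 0.626). Nfkbia, the inhibitor of NF-kB, had 91 UMIs in 11 chow cells and 46 in 19 WD cells, at 0.308 (0.211 to 0.444) and at 0.299 (0.196 to 0.449) without the top cells. Nr4a1, an early marker of receptor signalling, stood at 0.466 (0.299 to 0.721), and Junb, an AP-1 subunit with 233 and 228 UMIs, at 0.597 (0.495 to 0.719).

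Of the 813 chow UMIs of that list, 154 came from 1 chow cell, which gave most of the UMIs of some members and few of others. The cell, with 6148 UMIs, held 72 of the 83 Hspa1a UMIs of the chow NK gate, 19 of the 29 Jun UMIs, 8 of the 12 Atf3 UMIs and 0 of the 91 Nfkbia UMIs. Hspa1a, a heat shock gene whose near-identical copy Hspa1b makes the split of reads uncertain, had a log2 ratio of -1.86, and 0.56 without the top cells. Jun went from -1.93 to -0.77 in the same way. Without the top cell of each library the summed list stood at 0.623 (0.559 to 0.694). The same list was at 0.865 (0.813 to 0.921) in Ccl5-high CD8 T cells and 1.01 (0.975 to 1.04) in the whole CD8 T gate. It was at 1.14 (1.07 to 1.21) in ILC2 and 0.888 (0.857 to 0.920) in B cells, and whether handling of the 2 pools played a part in these ratios was not tested.

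Summed over cells, proliferation genes went in the opposite direction. All 9 measured members were higher in WD, with a median log2 ratio of 1.57, and 4 were past the criterion, beside 1.77% of all genes. The median cell differed little. The summed list ran from 2 to 21 UMIs per chow cell (median 9) and from 2 to 116 per WD cell (median 7). Its median level per cell was 2362 CPM in chow and 2396 CPM in WD. Hmgb2, a chromatin protein, had 29 UMIs in 11 chow cells and 103 in 29 WD cells, at 2.17 (1.42 to 3.39). Stmn1, a microtubule regulator, had 6 and 37 UMIs, at 3.76 (1.57 to 10.9), with 18 of the 37 in 1 WD cell and a ratio of 2.93 (0.972 to 11.8) without the top cells. Pcna, the replication clamp, had 3 and 19, at 3.86 (1.14 to 20.4), with 13 of the 19 in 1 WD cell. Without the top cells Hmgb2 was at 1.99 (1.25 to 3.29), just under 2-fold. Top2a, the topoisomerase of dividing cells, had 0 UMIs in chow and 12 in 5 cells in WD, 8 of them in 1 cell. Over 14 cycling genes picked from the list after the values had been seen, the 33 WD cells held 127 UMIs, 46 and 36 of them in 2 cells, and the 19 chow cells 19. At least 1 of the 14 was seen in 11 chow and 17 WD cells. Cells with at least 5 of the 14 genes numbered 0 in chow and 4 in WD. The sum of all 18 list members stood at 1.69 (1.42 to 2.01), and at 1.38 (1.15 to 1.66) without the top cell of each library; the median log2 ratio of the measured members was 0.58 or more under each setting tried. The summed list stood at 1.29 (1.18 to 1.42) in Ccl5-high CD8 T cells and 1.39 (1.29 to 1.503) in CD8 T cells without Dntt, Rag1 or Cd4. In the whole CD8 T gate it went the other way, at 0.829 (0.814 to 0.844), with 18 of 18 measured members lower in WD. It stood at 0.805 (0.654 to 0.994) in ILC2 and 0.816 (0.761 to 0.876) in B cells, and the differences between cell types were not tested.

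Transcription factors had 1 of 14 measured members higher and 13 lower in WD, with a median of -0.34, which became 0.092 after thinning to 1000 UMIs. Zeb2, a factor of terminal maturation, had 11 and 4 UMIs, at 0.222 (0.0515 to 0.748), and Gata3 10 and 5, at 0.305 (0.0818 to 0.979), with 3 of the 10 in the low-marker chow cell. Eomes (0.932), Tbx21 (0.657, 0.286 to 1.52), Id2 (0.956) and Irf8 (1.01) had intervals that included 1. Among immature NK genes 2 of 10 were higher and 8 lower, with a median of -0.83 and 3 of the lower members past the criterion, beside 3.44% of all genes. Of these, Ctla2a, a protease inhibitor, was at 0.493 (0.344 to 0.704), but 41 of its 73 chow UMIs were in 1 cell, and the ratio was 0.993 without the top cells. Cd28 was at 0.398 (0.193 to 0.796) and Emb at 0.492 (0.263 to 0.910), with 10 of the 26 chow UMIs of Emb in the low-marker cell. The summed immature NK list stood at 0.627 (0.540 to 0.728). Of its 354 chow UMIs 86 were in 1 cell, and it stood at 0.704 (0.597 to 0.831) without the top cells. The median cell went the other way in level, at 2093 CPM in chow and 2368 CPM in WD. A UMI of the list was seen in 16 of 19 chow and 33 of 33 WD cells. Of the ILC1 list only 3 members were measured. Of these, Tmem176b, a membrane protein of innate lymphoid cells, was lower past the criterion, beside 3.44% of all genes. It had 8 and 2 UMIs, 5 of the 8 in the low-marker cell. Mature NK genes had 3 of 10 higher and 7 lower, a median of -0.20 and 1 past the criterion, Zeb2, beside 3.44% of all genes. Their sum went the other way, at 1.09 (1.001 to 1.19).

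Cytokine receptor, trafficking, interferon response and glycolysis lists were mixed. Il18r1, a receptor chain for interleukin 18, had 14 and 8 UMIs, at 0.348 (0.127 to 0.890). It was the only cytokine receptor of 8 past the criterion, beside 3.44% of all genes lower. The median of the cytokine receptor list was -0.19, and 0.23 without the 3 low-marker cells. Of 15 trafficking genes 5 were higher and 10 lower, with a median of -0.40. Itgal, the LFA-1 chain, was higher with 7 and 28 UMIs, at 2.44 (1.04 to 6.61), and Gpr183 lower with 13 and 3, at 0.141 (0.0257 to 0.512), 9 of the 13 in the low-marker cell. Type I interferon response genes had 5 of 8 higher and 3 lower, with a median of 0.13 that was negative after thinning and with a minimum of 30 UMIs. Ifi27l2a, an interferon-induced gene, had 2 and 23 UMIs, at 7.01 (1.73 to 61.3), while the summed list stood at 1.03 (0.798 to 1.33). Glycolysis genes had 4 of 8 higher and 4 lower, with a median of 0.06 that also took either sign across the settings.

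**Figure D5:**
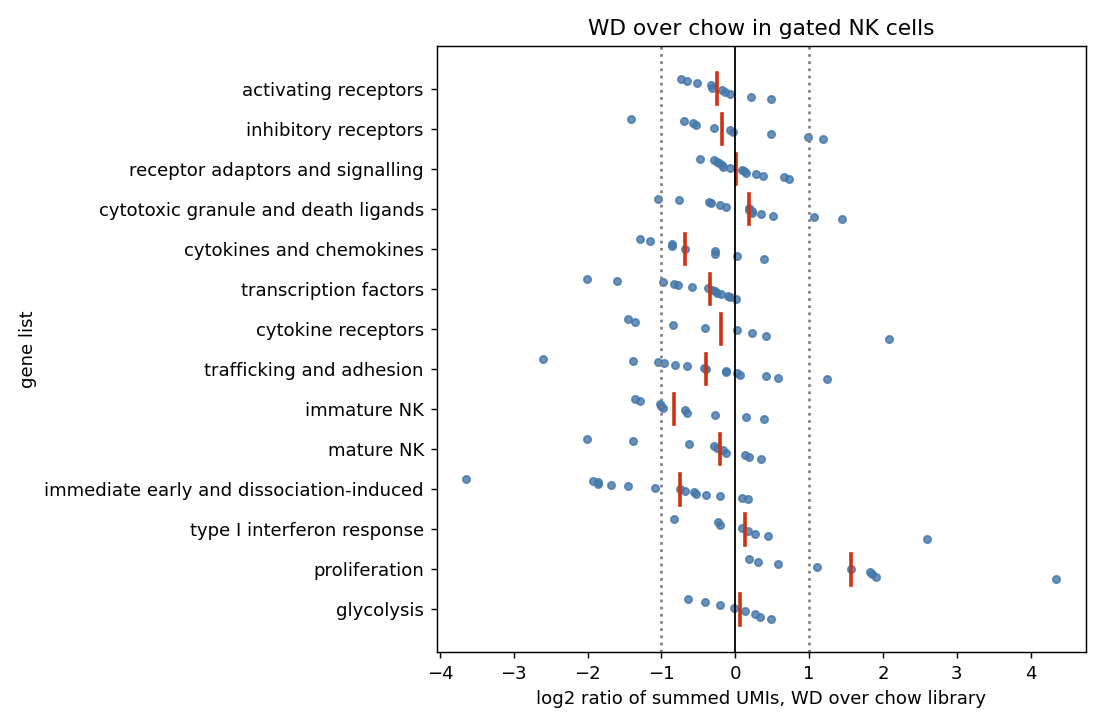
log2 ratio of summed UMIs, WD over chow, in the gated NK cells for the measured genes (at least 10 UMIs) of 14 lists; each point is a gene, red bars are list medians, the black line is the median of all measured genes, and dotted lines mark 2-fold. All 9 proliferation genes lie above 0 and 13 of 15 immediate early genes below 0.

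The largest single differences, taken by rule among genes with at least 20 UMIs in at least 5 cells and an interval excluding 1, were in genes of varied functions. The highest log2 ratios in WD were those of Eloc, a ubiquitin ligase subunit (2.66, 2 and 24 UMIs), Ifi27l2a (2.60), the replication factor Rfc2 (2.40, 2 and 20 UMIs) and Cox14, an assembly factor of the respiratory chain (2.03, 3 and 22 UMIs). Stmn1, Csnk2b, Pcna, Cbfb, Ssr2 and Akr1a1 followed, from 1.85 to 1.72; Cbfb encodes the partner subunit of RUNX factors and had 3 and 18 UMIs. The lowest were those of Hilpda, a lipid droplet protein induced by hypoxia (-2.45, 25 and 7 UMIs, 13 of them in 1 chow cell), Banf1, a chromatin-binding protein (-2.34, 17 and 5 UMIs), and AY036118 (-2.17, 15 and 5 UMIs). Phlda1, Ndel1, Zfp36l1, Gm20186, Jun, Abi1 and Hspa1a followed, from -2.11 to -1.86. Of these, Phlda1 had 11 of 17 chow UMIs, Zfp36l1 13 of 30 and Gm20186 12 of 16 in 1 cell each, and Gm20186 stood at -0.73 without the top cells.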

How the data were processed

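Single-cell RNA was measured in sorted leukocytes of ApoE-/- aortas, in 1 library for chow and 1 for WD. The authors deposited UMI counts per gene and cell barcode, made with Cell Ranger and STAR on mm10, per the submitters' processing notes, with no version given in the sources used here. The files hold 909 and 2077 barcodes with 4608033 and 8782901 UMIs over 27998 genes, of which 27645 were matched by gene ID to GENCODE M21, and 896 and 2061 cells (median 3747.5 and 3191 UMIs) had at least 200 genes and at most 10% mitochondrial UMIs. Scrublet, run through scanpy, called 1 and 5 doublets (0.110% and 0.241%, where 0.727% and 1.66% were set as the expected rate), none in the NK gate; none were removed. The libraries shared 3 barcodes, none on an NK cell. NK cells held 76783 and 125945 UMIs, 1845 to 9050 per cell.

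UMIs were summed over the gated cells of a library and scaled to their total. Levels have exact Poisson intervals, shares Clopper-Pearson intervals and ratios exact conditional binomial intervals, all at 95%; log2 ratios had 0.5 UMI added. Genes needed 10 UMIs. The interval code was tested on gene totals simulated with counting error alone, without the spread between cells that the data have. A count of 0 was read as up to 3 UMIs, which is below the upper end of its exact interval in NK cells (48.0 CPM in chow and 29.3 CPM in WD). Genes named for the diets were the 10 highest and 10 lowest log2 ratios with at least 20 UMIs in at least 5 cells and an interval excluding 1; for NK cells against other gates, those with the largest smaller ratio of the 2 libraries, not all of which are printed; and members of the lists by role. Absent from the gene table were Mx2, Ighm and Igkc. The rule, the members and the 29 lists (313 genes) were chosen with earlier results of these data known. The narrower CD8 T gates and the set without low-marker cells were chosen after seeing the data. Alternatives covered the gate limits, thinning to 1000 UMIs, means over cells, leaving out top cells, gene minima and the added UMI. Python 3.11.15, numpy 2.4.6, scipy 1.17.1, pandas 2.3.3, scanpy 1.11.5 and matplotlib 3.10.9 were used.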

Additional observations from a re-analysis of the deposited data

Results flagged for a closer look

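In 4 genes the NK cells of the 2 libraries differed from the CD8 T gate or the ILC2 gate in opposite directions, each 2-fold or more with an interval excluding 1. They are few beside the 10008 genes measured against the CD8 T gate and the 4446 against the ILC2 gate. The difference between the libraries was not tested. Tfam, a mitochondrial transcription factor, had a log2 ratio of NK over CD8 T cells of -6.78 in chow, a fitted value that rests on 0 NK UMIs against 104, and of 1.57 in WD, on 18 against 105. Gpr183 had log2 ratios of 1.54 in chow and -1.89 in WD against CD8 T cells, with 9 of its 13 chow NK UMIs in the low-marker cell. Wdr83os had -1.60 in chow and 1.55 in WD against ILC2. Hspa1a had 1.02 in chow and -1.28 in WD against ILC2, with 72 of its 83 chow NK UMIs in 1 cell. Against the narrower CD8 T gates, chosen after seeing the data, Tfam did so again, with 0 and 18 NK UMIs, and so did Brcc3, with 6 and 0 NK UMIs, and Unc50, with 0 and 9.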

How the results depend on the processing

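No paired analysis was possible because each diet has 1 library. The share of NK cells moved by less than its interval under the gate limits tried. Values that moved are medians of log2 WD over chow unless said otherwise. Thinned to 1000 UMIs, 15 genes were higher and 26 lower in WD, and medians were -0.76 for activating and -0.55 for inhibitory receptors, -0.25 for adaptors, -0.00285 for granule genes, -0.27 for cytokines, 0.092 for transcription factors, -0.19 for trafficking, -0.61 for immature NK, -0.56 for immediate early, -0.55 for interferon response and -0.66 for glycolysis genes and -0.26 for the 12 markers; 68 and 44 genes were higher and lower than in CD8 T cells, and 58 and 66 than in ILC2. As means over cells, medians were -0.42 for inhibitory receptors, 0.087 for granule, -0.53 for cytokine, -0.60 for immature NK and 0.90 for proliferation genes. Without top cells, 56 genes were lower in WD, medians were -0.51 for cytokine, -0.36 for immature NK, -0.35 for immediate early, 0.60 for interferon response and 0.61 for proliferation genes, Hspa1a was at 0.56, and 148 genes were higher than in CD8 T cells. With at least 2 gate UMIs, cytokines were at -0.76 and cytokine receptors at -0.89. With limits of 0, medians were -0.38 for inhibitory receptors, -0.20 for granule genes, -0.56 for transcription factors, -0.68 for cytokine receptors, -0.29 for immature and -0.39 for mature NK genes, 0.45 for glycolysis and -0.28 for the 12 markers. With a minimum of 30 UMIs, 18 genes were higher and 36 lower, and medians were -0.18 for adaptors, -0.28 for cytokines, -0.053 for trafficking, -0.015 for mature NK, -0.55 for immediate early, -0.24 for interferon response and 0.58 for proliferation genes. Without low-marker cells, cytokine receptors were at 0.23. Against CD8 T cells without Dntt, Rag1 or Cd4, 46 genes were lower, and with 3 Ccl5 UMIs as well, 126 were higher and 47 lower. Fewer UMIs, cells or genes enter the thinned, top-cell, limit and minimum settings by construction; the cause of the other shifts was not tested. Depth limits low genes most: 3 UMIs are 39.1 CPM in chow and 23.8 CPM in WD.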
